A study of Homo sapiens with 18 samples.

Results

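The genes described here are 58 genes of mitosis and the mitotic spindle, listed by symbol and found in the deposited tables by these symbols. All 58 were found among the 21411 genes measured. All 58 exceeded 1 CPM (counts scaled to the library total and a normalization factor) in at least 9 of the 18 libraries. RNA was sequenced from MDA-MB-231 cells, an established triple-negative breast cancer (TNBC) cell line, grown as 3D spheroids in Matrigel, a basement membrane gel, and collected on day 7. Jag1WT cells were the parental line. Jag1KO cells were pooled single-cell clones made with Cas9 directed to JAG1, the gene of the Notch ligand Jagged1. Jag1KO + rescue cells were Jag1KO cells carrying a Jagged1 plasmid, and Jag1KO + ctrl cells were Jag1KO cells carrying the empty plasmid. siCtrl and siJag1 cells were parental cells that received nontargeting or JAG1-directed siRNA shortly before they were seeded, so that the RNA was taken days after the transfection. Each condition had 3 biological replicates.

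Mitosis separates the copied chromosomes into a pair of daughter cells. Cyclin-dependent kinase 1 with its cyclins drives entry, condensins compact the chromosomes, kinetochores couple them to spindle microtubules, the spindle checkpoint holds back the anaphase-promoting complex until every kinetochore is attached, and cytokinesis then divides the cell. Most of these genes are transcribed in a wave in late S and G2 phase. That wave is controlled through cell cycle genes homology region (CHR) elements, which are bound by the DREAM and MYBL2-MuvB complexes, and through CCAAT boxes, which are bound by NF-Y. Their summed RNA is therefore widely read as a sign of how many cells are cycling.

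The promoters were examined first, for the CHR elements and CCAAT boxes named above and for E2F sites. Promoter windows of 300 bases, from 250 before to 50 after the RefSeq start on GRCh38.p14, were given for 49 members. No window was given for BUB3, TTK, AURKA, TPX2, BIRC5, CDCA2, RACGAP1, UBE2C and FOXM1. A CHR element, searched as TTTGAA or TTCGAA on both strands, was present for 40 of the 49 members (81.6%), against 19.5% of the 27305 genes with a window. A CCAAT box, searched as CCAAT on both strands, was present for 39 of the 49 (79.6%), against 39.7% of all genes. Both motifs were present for 32 (65.3%), against 7.85% of all genes. The E2F sites TTTGGCGC and TTTCGCGC, on both strands, were present for 2 members (4.08%), against 1.4% of all genes. In the bases before the start alone, a CHR element was present for 29 members (59.2%), against 17.2% of all genes, so that some of the matches lay downstream of the start. These matches are letters in a window and not measured binding sites.

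The 200 bases before the start are shown for the 3 members with the largest and the 3 with the smallest spread over the 18 libraries, among members with 1 window. The latter, KIF20B, MAD2L1 and CKAP5, varied less only among members. Their SDs were larger than those of 97.3%, 96.0% and 80.9% of all genes above 1 CPM in at least 9 libraries. Capitals mark CHR and CCAAT matches, and the last 2 matches of the MKI67 stretch share 1 base. KIF20A lies at chr5:138178912-138179111 (plus strand), DLGAP5 at chr14:55191586-55191785 (minus strand), MKI67 at chr10:128126424-128126623 (minus strand), KIF20B at chr10:89701390-89701589 (plus strand), MAD2L1 at chr4:120066849-120067048 (minus strand) and CKAP5 at chr11:46846281-46846480 (minus strand).
KIF20A: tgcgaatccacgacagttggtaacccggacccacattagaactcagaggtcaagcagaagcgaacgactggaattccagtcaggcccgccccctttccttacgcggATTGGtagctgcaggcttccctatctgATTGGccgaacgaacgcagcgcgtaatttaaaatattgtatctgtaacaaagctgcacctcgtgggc
DLGAP5: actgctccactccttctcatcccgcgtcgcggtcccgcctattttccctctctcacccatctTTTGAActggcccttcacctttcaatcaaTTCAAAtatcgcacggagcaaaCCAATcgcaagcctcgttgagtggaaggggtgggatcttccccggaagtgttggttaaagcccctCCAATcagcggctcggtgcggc
MKI67: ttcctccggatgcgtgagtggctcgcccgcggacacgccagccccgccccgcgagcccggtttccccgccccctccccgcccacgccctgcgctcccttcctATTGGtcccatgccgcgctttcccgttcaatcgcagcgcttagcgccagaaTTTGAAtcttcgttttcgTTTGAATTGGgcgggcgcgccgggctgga
KIF20B: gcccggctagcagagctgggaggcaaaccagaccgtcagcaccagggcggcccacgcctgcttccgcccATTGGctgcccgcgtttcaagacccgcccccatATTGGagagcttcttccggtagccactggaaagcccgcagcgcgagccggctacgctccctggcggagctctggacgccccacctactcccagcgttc
MAD2L1: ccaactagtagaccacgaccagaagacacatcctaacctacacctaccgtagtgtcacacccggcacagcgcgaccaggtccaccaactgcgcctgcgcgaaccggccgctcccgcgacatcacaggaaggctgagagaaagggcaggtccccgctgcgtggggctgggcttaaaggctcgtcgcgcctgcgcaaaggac
CKAP5: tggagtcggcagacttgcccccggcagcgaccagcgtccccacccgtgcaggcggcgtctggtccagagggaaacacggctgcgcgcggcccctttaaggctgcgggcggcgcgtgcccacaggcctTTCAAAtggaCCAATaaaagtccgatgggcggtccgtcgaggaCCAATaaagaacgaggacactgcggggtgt
The stretches of KIF20A, DLGAP5 and MKI67 held 2, 4 and 4 matches, and those of KIF20B, MAD2L1 and CKAP5 held 2, 0 and 3. These counts cover only the 200 bases shown. Over the whole window, KIF20B, MAD2L1 and CKAP5 each had both a CHR element and a CCAAT box, as did DLGAP5 and MKI67. KIF20A had a CCAAT box but no CHR element. The CHR elements of KIF20B and MAD2L1 lay after the start, and the CCAAT box of MAD2L1 lay upstream of the stretch shown. A CHR match was absent before the start of KIF20A, which varied most of all members, and present before that of CKAP5, which varied less than most members. Over the 49 members, the median SD of log2(CPM + 1) across 18 libraries was 1.03 (0.305 to 1.53) for the 40 with a CHR element anywhere in the window. It was 1.16 (0.607 to 1.58) for the 9 without. Whether the spread goes with these motifs was not tested.

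Between 10330581 and 18327890 reads per library were counted on genes. JAG1 measured between 433 and 657 CPM in the 9 libraries of Jag1WT, Jag1KO + rescue and siCtrl, and between 110 and 205 CPM in the 9 of Jag1KO, Jag1KO + ctrl and siJag1, so that it followed the labels in each library. The line's markers VIM, CD44, KRT8, KRT18, AXL and CAV1 were above 1 CPM in all 18 libraries. Of the receptors low in triple-negative cells, ESR1 was at 0 in 17 and PGR was at most 1.77 CPM, but ERBB2 measured 32.5 to 60.0 CPM. Among the defining markers of other cell types PTPRC was at 0 in 11, CDH5 in 14 and DCN in 15. The 11 such markers also hold CD68 (88.9 to 209 CPM), EPCAM (5.18 to 8.99 CPM) and PECAM1 (0.954 to 15.1 CPM), and the mean log2(CPM + 1) of all 11 was 1.29 to 1.4 in Jag1WT, 1.07 to 1.42 in Jag1KO, 1.14 to 1.29 in Jag1KO + rescue, 1.25 to 1.51 in Jag1KO + ctrl, 1.33 to 1.4 in siCtrl and 1.21 to 1.49 in siJag1. Their part in the results was not tested.

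The members moved together from library to library, and replicates of a condition stood far apart. The mean of log2(CPM + 1) over the 58 members was 4.02, 5.31 and 3.98 in Jag1WT replicates 1, 2 and 3. It was 3.75, 5.94 and 6.06 in Jag1KO, 3.67, 5.42 and 4.02 in Jag1KO + rescue, and 6.05, 6.55 and 4.44 in Jag1KO + ctrl. It was 4.11, 5.54 and 4.54 in siCtrl and 4.31, 6.46 and 4.54 in siJag1. Jag1KO thus held 1 low and 2 high libraries, Jag1KO + ctrl 2 high and 1 low, and every other condition 1 high library, its replicate 2. The libraries in order fell into an upper run, from 6.55 in Jag1KO + ctrl 2 down to 5.31 in Jag1WT 2, and a lower run from 4.54 in siCtrl 3 down to 3.67 in Jag1KO + rescue 1, with a step of 0.762 between them. The upper run of 8 libraries held all 6 libraries numbered 2, with Jag1KO 3 and Jag1KO + ctrl 1. In the upper run the 5 libraries with less JAG1 all stood above the 3 with more JAG1, with a step of 0.396 from Jag1KO 2 to siCtrl 2. Of all counts, the members took 0.128% in Jag1KO + rescue 1 and 0.777% in Jag1KO + ctrl 2. In bulk RNA, fewer cells in mitosis and less of these RNAs per cell cannot be told apart.

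**Figure D1:**
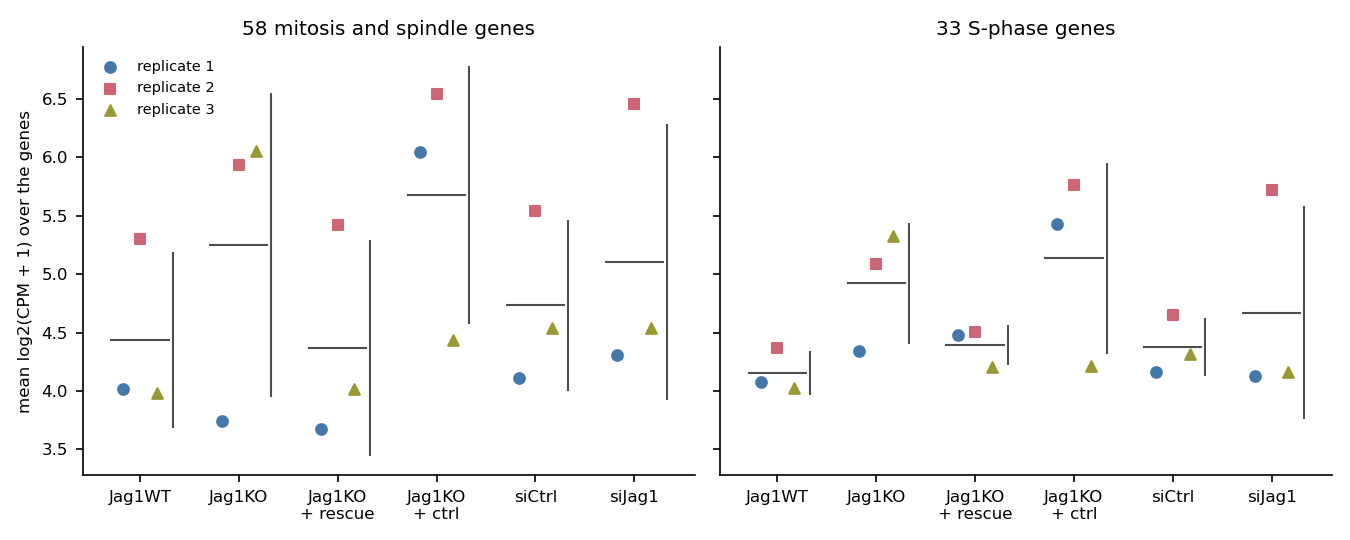
Mean log2(CPM + 1) over the 58 mitosis and spindle genes (left) and over 33 S-phase genes (right) in each library; symbols give the replicate number, horizontal lines the mean of 3 replicates and vertical lines ± 1 SD. Replicate 2 was the highest library for mitosis genes in every condition but Jag1KO, and the S-phase genes of Jag1WT, Jag1KO + rescue and siCtrl stayed between 4.02 and 4.65.

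The spread between replicates was wide in every condition. As mean ± SD (n = 3), the library means were 4.43 ± 0.754 in Jag1WT, 5.25 ± 1.30 in Jag1KO, 4.37 ± 0.924 in Jag1KO + rescue, 5.68 ± 1.10 in Jag1KO + ctrl, 4.73 ± 0.733 in siCtrl and 5.10 ± 1.18 in siJag1. In the order of these means, from Jag1KO + rescue and Jag1WT through siCtrl, siJag1 and Jag1KO to Jag1KO + ctrl, neighbours differed by less than 1 SD of either. Between the conditions compared below, Jag1KO + ctrl exceeded Jag1KO + rescue by 1.31, more than the SD of either, Jag1KO exceeded Jag1WT by 0.813, more than the SD of Jag1WT but less than that of Jag1KO, and siJag1 exceeded siCtrl by 0.370, less than the SD of either. Per gene, the SD of log2(CPM + 1) within conditions had a median of 1.08 over the members and 0.221 over the 12803 genes above 1 CPM in at least 9 libraries, and 53 of the 58 members were above the 95th percentile of all genes. Differences between replicate numbers took a median of 51.5% of a member's variation and differences between conditions 23.5%, against 18.1% and 42.9% over all genes. The share between replicate numbers was the larger for 55 of the 58 members, the exceptions being SPC25, NCAPD2 and CDC25B, and for 26% of all genes.

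All 58 members were highest in replicate 2 in Jag1WT, and likewise all 58 in Jag1KO + rescue, in Jag1KO + ctrl, in siCtrl and in siJag1. In Jag1KO 18 were highest in replicate 2 and 40 in replicate 3, and all 58 were lowest in replicate 1. In Jag1KO + ctrl 57 were lowest in replicate 3. Of all genes, between 32.2% and 41.1% were highest in replicate 2 of a condition. The labels name no sequencing batch, culture date or cell number that goes with the replicate number, and the part of any of these was not tested. Over the 18 libraries, the member mean had a correlation of −0.208 with the total counts and of −0.324 with the log2 level of JAG1, as a description only.

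**Figure D2:**
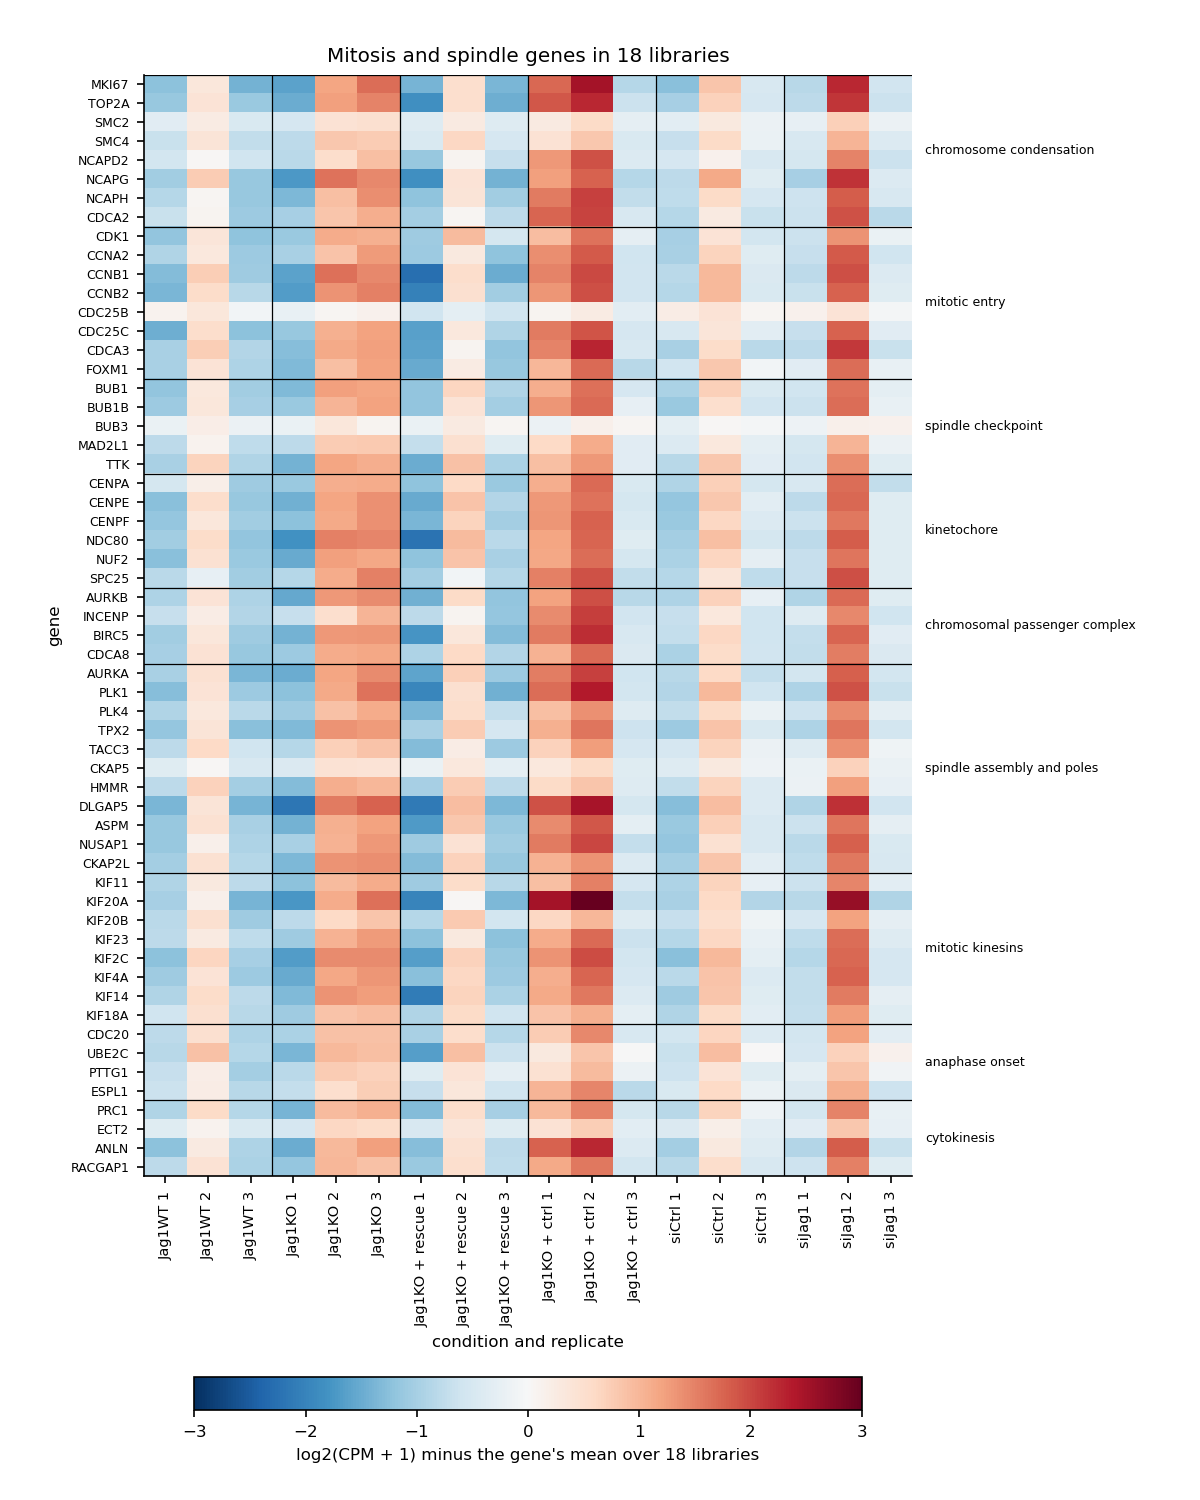
Heat map of log2(CPM + 1) of the 58 members (rows, by role) in the 18 libraries (columns, by condition and replicate), each gene centred on its mean over the libraries; red is above and blue below that mean. Whole columns share a colour, with Jag1KO + ctrl 2 and siJag1 2 the reddest, and BUB3, CDC25B, CKAP5, SMC2 and ECT2 stay pale across the columns.

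The members followed one another closely. Over the 1653 pairs of members, the median Pearson correlation across 18 libraries was 0.968, and 89.2% of the pairs exceeded 0.9. CENPF (0.996), RACGAP1 (0.996) and KIF4A (0.996) followed the mean of the other 57 genes most closely, and CDC25B (0.584), BUB3 (0.644) and UBE2C (0.883) least. The points share libraries and depth, so these values describe and do not test. The highest library was Jag1KO + ctrl 2 for 38 members and siJag1 2 for 17, and the lowest was Jag1KO + rescue 1 for 26 and Jag1KO 1 for 20.

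Chromosome condensation was represented by MKI67, the source of the Ki-67 protein that coats mitotic chromosomes, TOP2A, the topoisomerase that untangles them, the condensin subunits SMC2, SMC4, NCAPD2, NCAPG and NCAPH, and CDCA2, which targets a phosphatase to chromatin. MKI67 measured 37.9, 115 and 33.1 CPM in Jag1WT replicates 1 to 3, 28.9, 207 and 289 in Jag1KO, 33.5, 129 and 34.3 in Jag1KO + rescue, 302, 512 and 49.6 in Jag1KO + ctrl, 37.0, 162 and 64.5 in siCtrl, and 50.5, 434 and 60.5 in siJag1. The 3 highest values belonged to cultures with less JAG1, but Jag1KO 1 was below all 3 libraries of Jag1WT, and Jag1KO + ctrl 3 and siJag1 1 and 3 were within the range of their counterparts. TOP2A ranged from 26.8 CPM in Jag1KO + rescue 1 to 472 CPM in Jag1KO + ctrl 2, a ratio of 17.6. NCAPG, a subunit of condensin I, went from 8.38 CPM in the same lowest library to 150 CPM in siJag1 2. SMC2 and SMC4, the ATPase core of condensin, varied less, with highest-to-lowest ratios of 2.37 and 3.55. NCAPD2 was 50.5, 51.9 and 53.6 CPM in replicate 2 of Jag1WT, Jag1KO + rescue and siCtrl and 71.1, 188 and 139 CPM in replicate 2 of Jag1KO, Jag1KO + ctrl and siJag1.

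Mitotic entry was represented by the kinase CDK1, its cyclins CCNA2, CCNB1 and CCNB2, the activating phosphatases CDC25B and CDC25C, CDCA3, which acts in degradation of the entry inhibitor WEE1, and FOXM1, the transcription factor of G2/M genes. CCNB1 measured 20.4, 87.3 and 24.2 CPM in Jag1WT, 16.2, 164 and 141 in Jag1KO, 9.95, 74.2 and 17.6 in Jag1KO + rescue, 146, 206 and 34.2 in Jag1KO + ctrl, 28.9, 102 and 38.1 in siCtrl, and 29.5, 200 and 38.7 in siJag1. CCNB2 ran from 2.52 to 53.5 CPM and CDK1 from 11.5 to 88.7 CPM, both highest in Jag1KO + ctrl 2. FOXM1 ran from 13.8 CPM in Jag1KO + rescue 1 to 137 CPM in Jag1KO + ctrl 2. CDC25B stood apart from this group: its lowest and highest values were 53.3 CPM in Jag1KO + rescue 1 and 109 CPM in siCtrl 2, and differences between conditions took 64.7% of its variation. It measured 53.3, 66.8 and 53.5 CPM in Jag1KO + rescue, below every library of each other condition except Jag1KO + ctrl 3 at 65.9 CPM.

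The spindle checkpoint was represented by the kinases BUB1 and TTK, by BUB1B and MAD2L1, which inhibit the anaphase-promoting complex, and by their partner BUB3. BUB1B measured 9.47, 27.2 and 10.2 CPM in Jag1WT, 9.20, 44.0 and 50.3 in Jag1KO, 8.72, 28.3 and 9.91 in Jag1KO + rescue, 54.4, 70.6 and 17.7 in Jag1KO + ctrl, 9.19, 30.4 and 13.9 in siCtrl, and 13.1, 69.8 and 18.1 in siJag1. BUB1 spanned 15.0 to 125 CPM and TTK 7.50 to 61.8 CPM. BUB3 varied least of all members, from 267 CPM in siCtrl 1 to 415 CPM in Jag1KO 2, a ratio of 1.55, and it was the most abundant per length, with a median of 122 CPM per kb over 18 libraries against 0.475 CPM per kb for CDCA2, the lowest. The kinetochore genes CENPA, the centromeric histone, CENPE, CENPF, NDC80, NUF2 and SPC25, the last 3 being parts of the microtubule-binding NDC80 complex, varied more uniformly, with SDs over 18 libraries from 1.02 to 1.28. CENPF spanned 44.2 to 396 CPM and NDC80 4.09 to 82.3 CPM. CENPA was low, between 0.477 and 10.2 CPM.

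**Figure D3:**
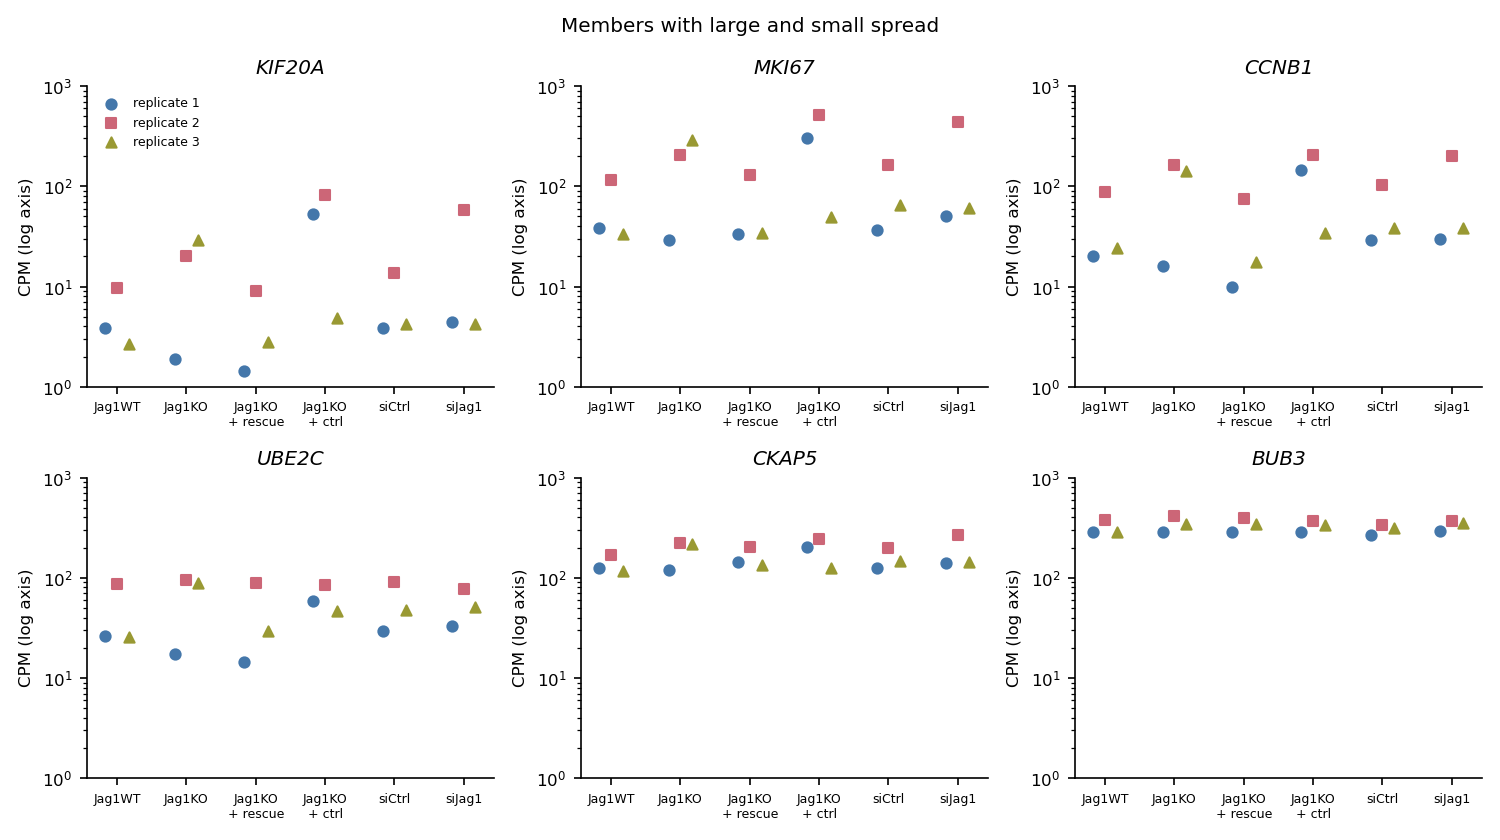
CPM on a log axis of 6 members in each library by condition, with symbols for the replicate number. KIF20A, MKI67 and CCNB1 span more than 10-fold between libraries, UBE2C has about the same level in all replicate 2 libraries (77.1 to 94.2 CPM), and CKAP5 and BUB3 vary by 2.25-fold and 1.55-fold.

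The chromosomal passenger complex, which corrects faulty attachments, was represented by the kinase AURKB and its partners INCENP, BIRC5 and CDCA8. AURKB spanned 5.15 CPM in Jag1KO 1 to 66.7 CPM in Jag1KO + ctrl 2, and BIRC5 5.59 CPM in Jag1KO + rescue 1 to 103 CPM in Jag1KO + ctrl 2. Spindle assembly was represented by the kinases AURKA, PLK1 and PLK4, by TPX2, which activates AURKA, by TACC3 and CKAP5, which act on microtubule growth, and by HMMR, DLGAP5, ASPM, NUSAP1 and CKAP2L. AURKA spanned 6.68 to 94.1 CPM, PLK1 2.45 to 68.7 CPM and TPX2 31.5 to 248 CPM. DLGAP5, which stabilises kinetochore fibres, had the second largest SD of the members (1.53), and CKAP5, a microtubule polymerase that also serves interphase cells, had the third smallest (0.386). HMMR was 9.70, 10.3 and 9.51 CPM in replicate 2 of the conditions with more JAG1 and 13.2, 10.8 and 14.5 CPM in replicate 2 of those with less.

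The mitotic kinesins KIF11, KIF20A, KIF20B, KIF23, KIF2C, KIF4A, KIF14 and KIF18A included the most variable member. KIF20A, which acts in the central spindle, measured 3.85, 9.77 and 2.67 CPM in Jag1WT, 1.89, 20.0 and 29.4 in Jag1KO, 1.43, 8.98 and 2.81 in Jag1KO + rescue, 53.2, 81.5 and 4.87 in Jag1KO + ctrl, 3.89, 13.6 and 4.26 in siCtrl, and 4.42, 58.3 and 4.20 in siJag1. The 5 highest values were all in libraries with less JAG1, yet Jag1KO 1, Jag1KO + ctrl 3 and siJag1 1 and 3 were all below 5 CPM. KIF11, the kinesin that pushes the spindle poles apart, spanned 19.8 to 138 CPM, and KIF18A, which trims kinetochore microtubules, 8.29 to 45.2 CPM. Anaphase onset was represented by CDC20, the activator of the anaphase-promoting complex, UBE2C, its ubiquitin-conjugating enzyme, PTTG1 (securin) and ESPL1 (separase), and cytokinesis by PRC1, ECT2, ANLN and RACGAP1. The anaphase genes had the lowest median SD of the 9 roles, 0.791. UBE2C measured 87.3, 88.8 and 91.1 CPM in replicate 2 of Jag1WT, Jag1KO + rescue and siCtrl and 94.2, 84.5 and 77.1 CPM in replicate 2 of Jag1KO, Jag1KO + ctrl and siJag1, so that these libraries, far apart for KIF20A, overlapped. CDC20 spanned 25.8 to 142 CPM and PTTG1 23.8 to 96.2 CPM. PRC1, which bundles the central spindle, spanned 20.8 to 160 CPM, and ANLN, a scaffold of the contractile ring, 19.9 to 283 CPM.

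The comparison of parental with knockout cultures gave no member past the test. Members were called at a Benjamini-Hochberg false discovery rate (FDR) below 0.05 and a fold change above 1.5 by the quasi-likelihood test of edgeR, over all genes tested. In Jag1WT against Jag1KO, 57 of the 58 members had lower estimates in Jag1WT. The median was −1.14 on the log2 scale, against −0.01 over all 12928 genes. None was called, against 0.704% of all genes, and for none were the 3 libraries of Jag1WT all below the 3 of Jag1KO, which held for 6.61% of genes. An unadjusted p below 0.05 was reached by 1 member (1.72%), against 8.82% of all genes, and DESeq2 and limma also called 0. Without the CPM filter it was reached in edgeR by 29 members (50.0%), against 7.91% of all genes, and 0 were called. The 1 member with the filter, SPC25, had a log2 fold change of −2.34 ± 0.81 (SE; edgeR, adjusted p = 0.416), with 0.694, 1.5 and 0.457 CPM in Jag1WT and 0.652, 5.41 and 7.45 CPM in Jag1KO. NUSAP1 (−1.33 ± 0.59) and NCAPH (−1.36 ± 0.66) came next by p. DLGAP5 (−1.74 ± 0.91), MKI67 (−1.51 ± 0.77) and CCNB1 (−1.30 ± 0.81) had wide errors, while CDC25B (0.14 ± 0.14) and BUB3 (−0.14 ± 0.17) were near 0.

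Restoring Jagged1 was compared with the empty plasmid in the knockout background. In Jag1KO + rescue against Jag1KO + ctrl, 57 of the 58 members were lower in the rescue, with a median log2 fold change of −1.39, against 0.00 over 12894 genes. None was called by edgeR, against 0.00776% of all genes, nor by limma, and none had all 3 rescue libraries below all 3 control libraries, which held for 16.0% of genes. An unadjusted p below 0.05 was reached in edgeR by 19 members (32.8%), all lower in the rescue. Of the 12894 genes, 30.8% reached it in either direction, 2110 of them lower and 1855 higher. Without the CPM filter such a p was reached in edgeR by 39 members (67.2%), against 23.8% of all genes, and 0 were called. With the filter, the smallest adjusted p was 0.107 for KIF20A, whose log2 fold change was −3.40 ± 1.00 (SE; edgeR). CDCA2 (−2.21 ± 0.68) and NCAPD2 (−1.75 ± 0.56) followed. DESeq2 called 6 members lower, NCAPD2, CDCA2, BUB1B, SPC25, INCENP and KIF20A, which is 10.3% of the members, against 12.3% of all genes. CDC25B, at −0.53 ± 0.18, had a smaller estimate than most but a smaller error too, and BUB3, at 0.03 ± 0.18, was the member with a higher estimate in the rescue.

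Knockdown gave the smallest estimates of the comparisons in which JAG1 was altered. In siCtrl against siJag1, 56 of the 58 members were lower in siCtrl, with a median log2 fold change of −0.66, against −0.01 over 12823 genes. None was called by edgeR, DESeq2 or limma, against 0.0156% of all genes by edgeR, none reached an unadjusted p below 0.05, as 3.83% of all genes did, and none had all siCtrl libraries below all siJag1 libraries, which held for 5.33% of genes. The smallest p values belonged to SPC25 (−1.57 ± 0.99), KIF20A (−1.63 ± 1.04) and CDCA2 (−1.23 ± 0.83). UBE2C was at 0.05 ± 0.43. With the replicate number as a block, 15 members (25.9%) had an unadjusted p below 0.05 in edgeR, against 7.99% of all genes. Still 0 were called. The pairing by number was taken from correlations in these same expression values, as the labels name none. In siJag1 2 the members averaged 6.46 against 5.54 in siCtrl 2, and siJag1 1 and 3 averaged 4.31 and 4.54 against 4.11 and 4.54 in siCtrl 1 and 3.

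**Figure D4:**
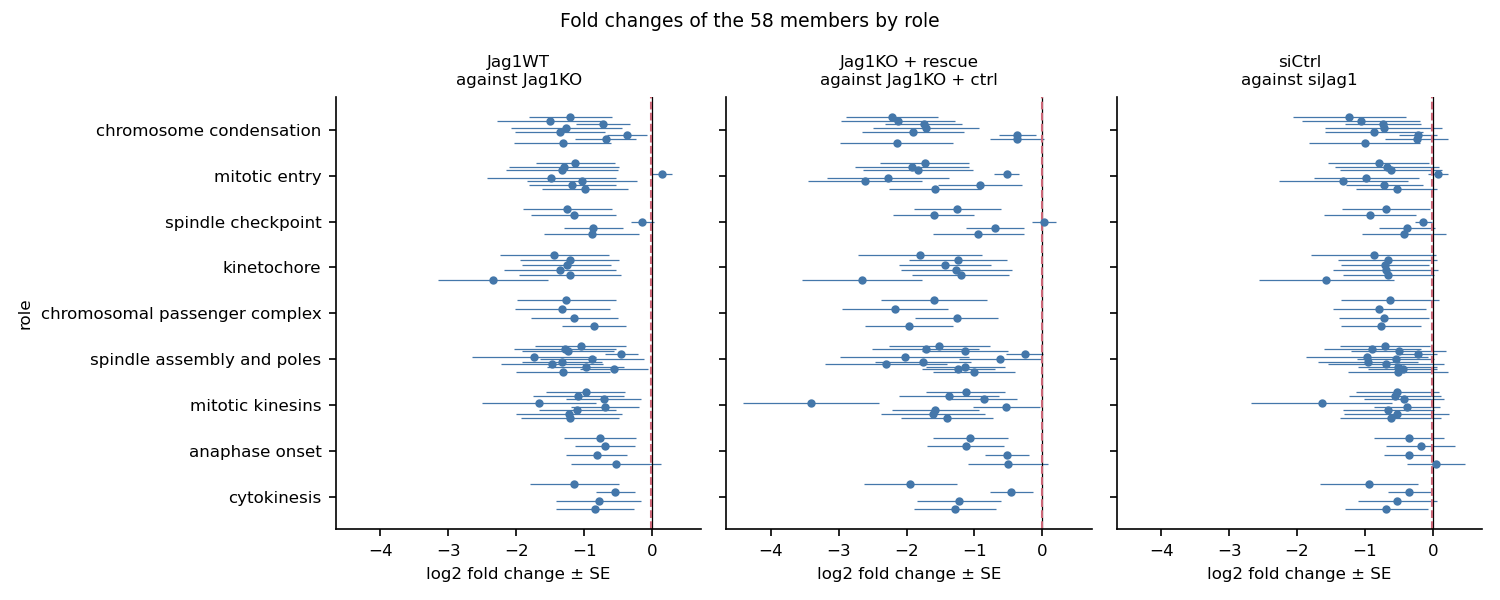
Log2 fold changes (first condition minus second) with SE from edgeR for the 58 members, by role, in the comparisons of Jag1WT with Jag1KO, Jag1KO + rescue with Jag1KO + ctrl and siCtrl with siJag1; the dashed line is the median of all genes tested and the solid line is 0. Nearly all points lie left of 0, 57, 57 and 56 of 58, with wide errors, and no member passed the test.

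By role, the median estimates in Jag1WT against Jag1KO ran from −0.73 for anaphase onset to −1.31 for the kinetochore, and in the rescue from −0.79 for anaphase onset to −1.83 for chromosome condensation. In siCtrl against siJag1 they ran from −0.26 for anaphase onset to −0.80 for chromosome condensation. The anaphase genes thus had the smallest medians in all 3 comparisons. Differences between roles were not tested.

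The control comparisons, in which JAG1 was not the difference, share their libraries with the comparisons above. In Jag1KO + ctrl against Jag1KO, 53 of the 58 members were higher in Jag1KO + ctrl, with a median log2 fold change of 0.29, and 0 were called by edgeR, DESeq2 or limma, where edgeR called 0% of 13004 genes. The smallest p values belonged to NCAPD2 (0.86 ± 0.60), INCENP (0.93 ± 0.67) and KIF20A (1.44 ± 1.05). In siCtrl against Jag1WT, 55 of the 57 members tested were higher in siCtrl, with a median of 0.32, and again 0 were called by any of the 3 tools, and by edgeR 0% of 12847 genes. SPC25 was not tested there, being above 1 CPM in fewer than 3 libraries. ESPL1 (0.43 ± 0.36), MAD2L1 (0.34 ± 0.28) and FOXM1 (0.52 ± 0.44) had the smallest p. In both control comparisons 0 members had an unadjusted p below 0.05 without a block, against 5.81% and 1.38% of all genes. With the replicate number as a block, 41 members (71.9%) did so in siCtrl against Jag1WT, where 9.56% of all genes did, and 0 were called. The pairing by number was again taken from these same expression values and not from the labels. The direction of both control comparisons rested on single libraries: without Jag1KO 1 or without Jag1KO + ctrl 2, 39 and 40 of the 58 members were lower in Jag1KO + ctrl, and without siCtrl 2, 53 of 57 were lower in siCtrl.

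Differences between the comparisons were tested by interaction contrasts over 12 libraries. Of the 58 members, 0 were called for Jag1WT/Jag1KO against siCtrl/siJag1, where 0.109% of all genes were, 0 for Jag1WT/Jag1KO against the rescue, where 0.545% were, and 0 for siCtrl/siJag1 against the rescue, where 0.0937% were. An unadjusted p below 0.05 was reached by 0, 1 and 1 members in edgeR. Among all genes it was reached by 497 of 12814, 2850 of 12850 and 2557 of 12805. DESeq2 and limma called 0 members in each.

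The calls depended on single libraries. Without Jag1KO 1, 44 of the 58 members (75.9%) were called lower in Jag1WT, against 7.29% of all genes in that fit, with a median log2 fold change of −1.61. They held all 6 kinetochore genes, all 4 genes of the chromosomal passenger complex, 7 of 8 condensation genes, 9 of 11 spindle assembly genes and 6 of 8 kinesins, but 1 of 4 anaphase genes. MKI67 was then at −2.01 ± 0.43 (edgeR, adjusted p = 0.0213) and AURKB at −1.78 ± 0.36 (edgeR, adjusted p = 0.0167), while UBE2C (−0.995 ± 0.43) and BUB3 (−0.27 ± 0.15) were not called. Without Jag1KO + ctrl 3, 33 members (56.9%) were called lower in the rescue, against 28.7% of all genes in that fit, KIF20A at −3.94 ± 0.63 (edgeR, adjusted p = 0.00603). Of the members called in these fits, 28 were in both, which is 63.6% of the 44 and 84.8% of the 33. Each fit called most of the 58 members, so lists of these sizes share many genes in any case. The overlap was not tested. Without siJag1 2, the median in siCtrl against siJag1 turned to 0.47, with 1 of 57 members lower in siCtrl. In each of these fits an arm had 2 libraries, and the library left out was known to be extreme.

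**Figure D5:**
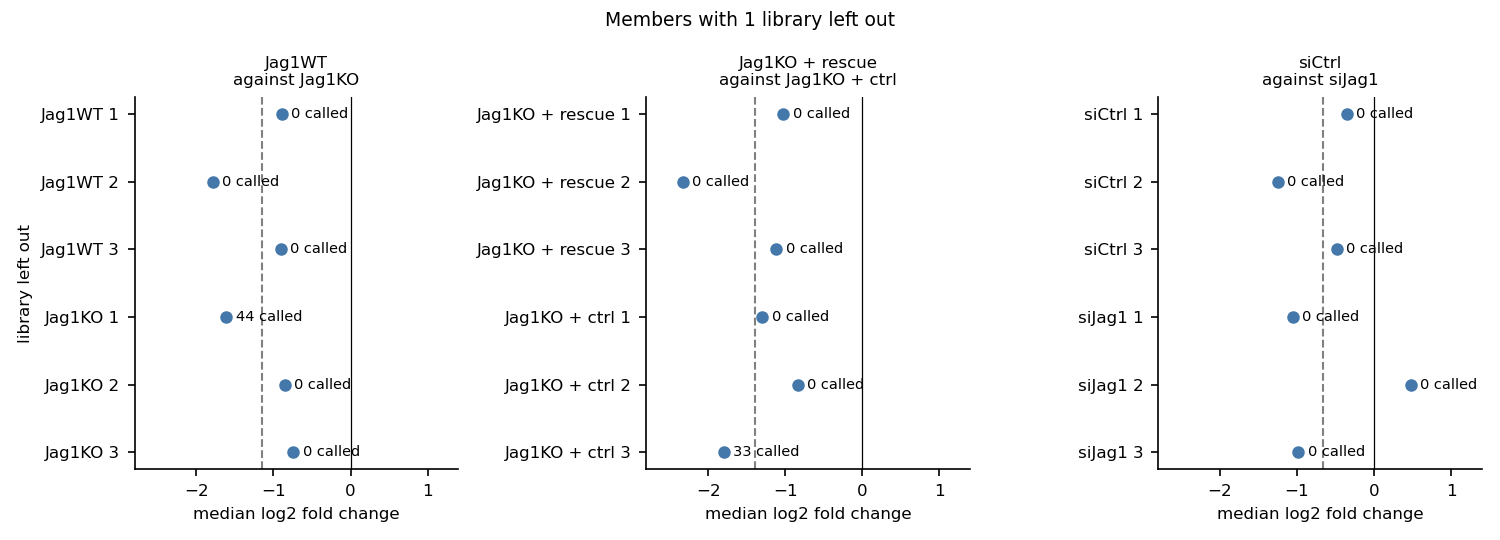
Median log2 fold change of the members with each library left out in turn, in 3 comparisons; the dashed line is the median with all 6 libraries, the solid line is 0, and the number beside a point counts members called lower in the first condition. Members were called only without Jag1KO 1 (44) and without Jag1KO + ctrl 3 (33), and the median was above 0 only without siJag1 2.

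Libraries with the same replicate number were also set side by side. Among the libraries numbered 2, all 3 with more JAG1 (Jag1WT, Jag1KO + rescue and siCtrl) were below all 3 with less (Jag1KO, Jag1KO + ctrl and siJag1) for 53 of the 58 members, against 14.7% of all genes, and the exceptions were CDC25B, BUB3, KIF20B, UBE2C and ESPL1. The difference of mean log2(CPM + 1) between the latter and the former was 2.01 for KIF20A, 1.64 for SPC25, 1.41 for MKI67, 1.11 for CCNB1 and 0.353 for SMC4. Among the libraries numbered 1, this order held for 2 members, INCENP and NUSAP1, against 3.25% of all genes, and among those numbered 3 for 12, with CDK1, BUB1B, NDC80 and AURKA among them, against 4.19%. No member had the reverse order in any of the 3 sets. The 6 libraries of a number come from different conditions and are not replicates of each other, so no test was made. The members also moved together from library to library, so these counts of members are not independent observations.

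S-phase genes largely moved with the mitosis genes, with a correlation of 0.891 between the library means over 18 libraries, and the gap between both means varied. The mean log2(CPM + 1) of 33 genes of DNA replication was 4.07, 4.37 and 4.02 in Jag1WT 1, 2 and 3, 4.48, 4.50 and 4.20 in Jag1KO + rescue, and 4.16, 4.65 and 4.31 in siCtrl. It was 4.34, 5.09 and 5.33 in Jag1KO, 5.43, 5.76 and 4.21 in Jag1KO + ctrl, and 4.13, 5.72 and 4.16 in siJag1. In replicate 2 of the conditions with more JAG1, the mitosis mean therefore exceeded the S-phase mean by 0.94, 0.91 and 0.90, and in replicate 2 of those with less by 0.85, 0.78 and 0.74. In Jag1KO + rescue the replicates differed by 1.74 in the mitosis mean, with S-phase values between 4.20 and 4.50. The S-phase mean was above the mitosis mean in 6 libraries, by 0.80 in Jag1KO + rescue 1, by 0.59 in Jag1KO 1 and by less in Jag1WT 1 and 3, Jag1KO + rescue 3 and siCtrl 1. In Jag1WT against Jag1KO, 26 of the 33 S-phase genes had an unadjusted p below 0.05, all lower in Jag1WT, against 8.82% of all genes in either direction. Of the 33, 17 had all Jag1WT libraries below all Jag1KO libraries, against 6.61% of all genes, and 1, MCM2, was called by edgeR, against 0.704%. In the rescue comparison 15 had an unadjusted p below 0.05 in edgeR, all lower in the rescue. Of all 12894 genes, 30.8% had such a p in either direction, 2110 of them lower. There 4 had all rescue libraries below all control libraries, against 16.0%, and 0 were called. In siCtrl against siJag1 these counts were 0, 0 and 0, against 3.83%, 5.33% and 0.0156% of all genes. The difference between both lists was not tested.

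Of 51 other mitotic genes, all 51 were lower in Jag1WT than in Jag1KO, 50 were lower in the rescue and 49 lower in siCtrl, with medians of −0.95, −1.28 and −0.57. None was called in these comparisons by edgeR, with 5, 25 and 0 at an unadjusted p below 0.05, where 8.82%, 30.8% and 3.83% of all genes were, and their library means had a correlation of 0.997 with those of the members. The mean log2(CPM + 1) of the 15 subunits of the anaphase-promoting complex, the target of CDC20 and UBE2C, lay between 5.22 and 5.43 in every library. It had a correlation of 0.659 with the member means. The subunits had medians of −0.03, −0.12 and −0.10, 0 called by edgeR and 0, 7 and 0 at an unadjusted p below 0.05. Of the 7 in the rescue, 4 were higher and 3 lower, and single subunits there ran from −0.93 to 0.62. Of 18 transcription regulators of the cell cycle, 17 were tested in each of the 3 comparisons, with medians of −0.25, −0.34 and −0.18, 0 called by edgeR and 4, 9 and 1 at an unadjusted p below 0.05, and their library means ran from 4.36 in Jag1WT 3 to 5.19 in siJag1 2, with a correlation of 0.885 with the member means. Of 14 cell cycle arrest genes, 13 were tested, with medians of −0.06, 0.40 and 0.08, 0 called by edgeR and 1, 6 and 0 at an unadjusted p below 0.05, and their library means (4.93 to 5.40) had a correlation of −0.047 with those of the members.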

How the data were processed

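Stranded mRNA libraries of 18 cultures, labelled as biological replicates, were sequenced. The authors deposited raw read counts for 21411 genes, and the same table as CPM signal and as RPKM. The deposited CPM are counts scaled to the library total and to a normalization factor of each library. These factors ran from 0.931 in Jag1KO + rescue 3 to 1.07 in Jag1KO + ctrl 2. The authors' methods name TMM (trimmed mean of M values) normalization. The submitters' processing notes name hg38, featureCounts, edgeR 3.28.0, R 3.6.1 and MultiQC 1.5, and the aligner is not given in the sources used here. The deposited RPKM served only to derive gene lengths, and 3 RPKM columns matching no label were not used. Genes without a symbol took at most 0.0442% of counts.

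Counts were tested with the quasi-likelihood test of edgeR 4.0.16 (R 4.3.3, TMM) over the 6 libraries of a comparison, or 12 of an interaction, on genes above 1 CPM in at least 3 or 6 libraries. Adjusted p-values are Benjamini-Hochberg over all genes tested, and p-values measure the spread between these cultures. DESeq2 1.42.0, limma 3.58.1 on log2(CPM + 1), RLE size factors, no filter, a fit of 18 libraries, FDR alone, a replicate block and leaving out each library were alternatives. The code was tested on simulated counts with the same small spread for every gene and no differences between replicate numbers. It was not tested on genes as variable as the members. The members and lists were chosen with earlier results of these data known. Genes named were fixed examples of each role, up to 5 called per comparison (or the 3 smallest p), and the 3 members with the largest and smallest SD and correlation with the others. Genes printed outside this rule were chosen after their values were seen.

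Replicate numbers were taken to pair libraries where the correlation of same-numbered deviations from group means exceeded 0.1 in every pair. This held for siCtrl with siJag1 (0.543, 0.523 and 0.263) and siCtrl with Jag1WT (0.597, 0.714 and 0.213). It did not hold for the other comparisons. The pairing thus comes from the same expression values as the tests, and the labels name none.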

Additional observations from a re-analysis of the deposited data

How the results depend on the processing

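With 3 cultures per condition and a wide spread between them, the tests could miss large differences. Of the members lower in Jag1WT than in Jag1KO, between 0 and 44 were called as each library was left out, 44 without Jag1KO replicate 1. For Jag1KO + rescue against Jag1KO + ctrl the range was 0 to 33, with 33 called without Jag1KO + ctrl replicate 3, 6 by DESeq2 and 3 (5.17%) in a fit of 18 libraries, which called 16.7% of all genes. The replicate block called 0 members in each of the 5 comparisons, with 28, 53, 15, 0 and 41 at an unadjusted p below 0.05, against 17.0%, 31.8%, 7.99%, 3.08% and 9.56% of all genes. A fit of 18 libraries with the replicate block, chosen after seeing the data, called 45 members (77.6%) in the rescue comparison and 23.5% of all genes. In Jag1WT against Jag1KO that fit called 0 members, with 35 (60.3%) at an unadjusted p below 0.05 in edgeR, against 13.8% of all genes. In siCtrl against siJag1 it called 0, with 0 at such a p, against 6.16%. For the difference between Jag1WT/Jag1KO and the rescue, 0 to 1 members were called as libraries were left out. For siCtrl/siJag1 against the rescue, 0 to 1 were called likewise and 1 under the replicate block, CDC25B each time. Median log2 fold changes ranged over libraries left out from −1.79 to −0.74 in Jag1WT against Jag1KO, −2.33 to −0.83 in the rescue, −1.25 to 0.47 in siCtrl against siJag1, −0.18 to 0.71 in Jag1KO + ctrl against Jag1KO and −0.27 to 0.98 in siCtrl against Jag1WT. The sign turned without siJag1 replicate 2 (0.47, with KIF20A at 0.76 and CDCA2 at 0.52, where the lowest values over libraries left out were −2.46 and −1.77), without Jag1KO replicate 1 (−0.16), without Jag1KO + ctrl replicate 2 (−0.18) and without siCtrl replicate 2 (−0.27). Leaving out both libraries numbered 2, also chosen after seeing the data, gave medians of −1.56, −1.78, −0.05, 0.09 and 0.39 in the same order, with 0 members called. Why these values moved was not tested, beyond the libraries left out.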
